A study of Brachypodium distachyon with 8 samples.

Results

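The loci described here are 3′ UTRs of Brachypodium distachyon, the untranslated ends of transcripts, at which very short small RNA reads were the commonest. A locus is 1 transcript identifier, and its reads were summed over all 8 libraries and split by length. The loci were chosen by 3 conditions: 40 or more reads, a place outside the 100 identifiers with most reads, and a length profile led by short reads. In such a profile the class of 15 to 19 nt held at least as many reads as the classes of 20 to 23, 24 and 25 to 41 nt, and the commonest single length was 15, 16 or 17 nt. These conditions gave 4243 identifiers from 3031 genes, which is 23.5% of the 18091 identifiers that met the first 2 conditions and 4243 of 30815 in all. They held 954462 reads, 14.0% of the reads outside the 100 top identifiers. Because measured lengths chose them, their lengths are given below as a description with no test.

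Leaves of the inbred line Bd21 were sampled unstressed or after 1 of 7 stress treatments, with 1 library per condition and plants grown at 22 °C. Salt stress was 300 mM NaCl soaked into the soil for 48 h, and cold stress was 4 °C for 6 h or 24 h. Heat stress was 42 °C for 1 h or 3 h, given either in air (hot air below) or by immersion in water (hot water). How many plants made a library is not given in the sources used here, and 2 Illumina small RNA kits are named without saying which library had which, so kit and condition cannot be told apart. With no replicate, every difference is between libraries, intervals cover counting error only, and no p-value is given.

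In plants, Dicer-like enzymes cut double-stranded RNA into small RNAs of set lengths. MicroRNAs, which guide Argonaute proteins to matching transcripts, are mostly 21 nt long, and the small interfering RNAs of RNA-directed DNA methylation are mostly 24 nt long. Reads shorter than these products, spread over many lengths, are also what breakdown of longer RNA gives. The counts analysed here cannot tell such sources apart, because they hold a length but no sequence, strand or position within the UTR. Gene names could be attached to none of the loci (0 of 3031 genes), so no gene functions are given, and levels are not compared between loci per length of UTR.

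Total 3′ UTR reads per library ran from 1730029 under salt to 4622303 after 1 h of heat in air. The 100 identifiers with most reads held 94.6% of them in the unstressed library and 51.9% to 80.9% in the stressed ones. That left 196667 reads outside these identifiers in the unstressed library, the fewest, and 1327534 after 6 h of cold, the most. Read counts were therefore scaled with TMM, a trimmed mean of log ratios over loci, which put the stressed libraries at 1.92 to 6.70 times the size of the unstressed one. By total reads they would be 0.475 to 1.27 times its size. The choice moves all loci of a library by the same factor, so it sets levels but not the gap between groups of loci.

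Most of the loci were lightly covered. Their pooled reads ran from 40 to 5985 with a median of 96, against a median of 151 over the 18191 identifiers with 40 or more reads. Only 926 had 200 or more reads and 148 had 1000 or more. The commonest length was 15 nt at 2091 loci, 16 nt at 1301 and 17 nt at 851.

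At the edge of the rule, 112 loci had a 15 to 19 nt class that tied with another class and were kept. Bradi3g14120.2 had 809 reads of 15 to 19 nt and 809 in the next class, Bradi1g54250.1 had 284 and 284, and Bradi4g37350.2 had 148 and 148. Just outside, Bradi2g13110.1 had 400 against 401, Bradi3g40890.3 had 365 against 366, and Bradi2g01430.4 had 461 against 463. The lead of the short class was under 5 percentage points at 698 members, and 499 identifiers missed it by less than that. The boundary thus runs through a continuous range of profiles.

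Pooled over the members, the share of reads declined from 18.1% at 15 nt to 11.8% at 16 nt, 9.20% at 17 nt and 5.87% at 18 nt. From 18 nt the profile was nearly flat up to 24 nt, with shallow rises to 5.27% at 21 nt and 5.84% at 24 nt, and it then declined slowly to 2.28% at 30 nt. At the other kept identifiers the same lengths stood out as peaks, with 12.4% at 21 nt and 50.1% at 24 nt. The loci chosen for short reads therefore also held many long ones: the 25 to 41 nt class had a median of 28.3% of a member's reads.

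**Figure D1:**
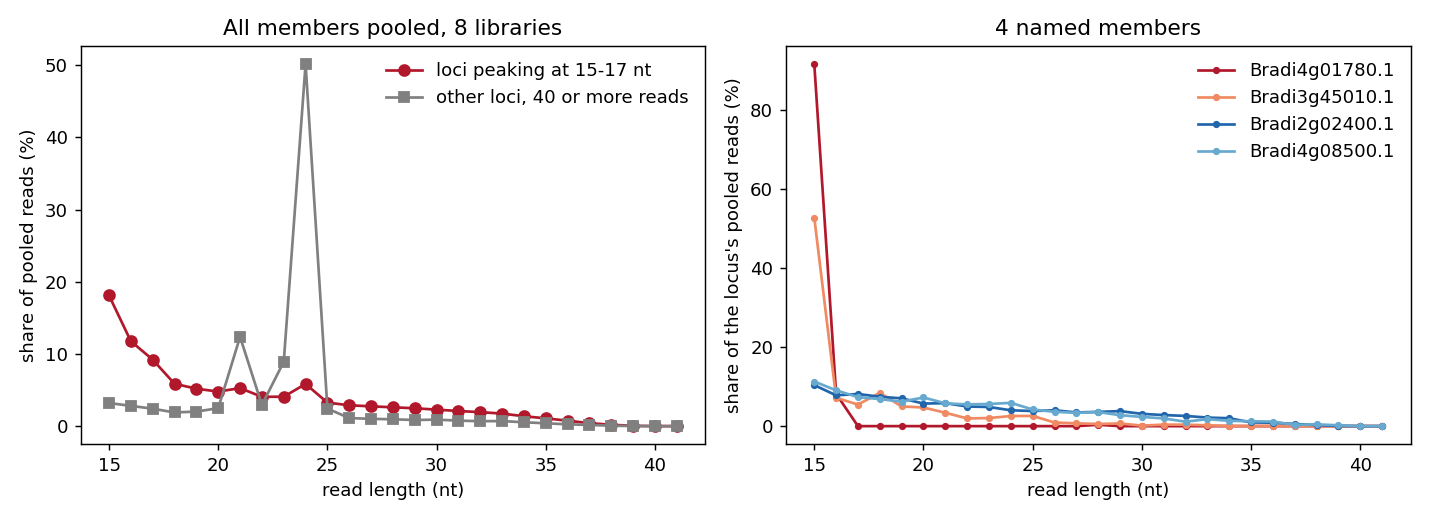
Share of pooled reads (%) by read length (nt), for all members and all other kept identifiers on the left and for 4 named members on the right. Members start at 18.1% at 15 nt and decline, while the others peak at 24 nt with 50.1%. On the right, Bradi4g01780.1 had 91.5% of its reads at 15 nt, and Bradi2g02400.1 had 10.4%.

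The members' profiles fell between 2 extremes. At 2761 loci no single length held 20% of the reads. These broad ladders carried 690317 reads, 19 lengths at the median locus, and a median of 30.9% of reads at 25 to 41 nt. At 283 loci 1 length held 50% or more of the reads. These single-length spikes carried 117721 reads, and 221 of them were at 15 nt, with a median of 4.40% of reads at 25 to 41 nt. The other 1199 loci lay between.

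The purest spikes with 200 or more reads had a single length in every library. Bradi1g10130.1 had 693 reads, 100% of them 15 nt long. It had 227 reads unstressed, 110 with salt, 78 at 6 h and 28 at 24 h of cold, 36 at 1 h and 73 at 3 h of hot air, and 112 at 1 h and 29 at 3 h of hot water. All 8 libraries thus had reads of 1 length, with the highest count in the unstressed one. Bradi4g07590.1 with 234 reads and Bradi4g26740.1 with 206 were also at 15 nt alone. They differed in where the reads lay: the first had 128 in the unstressed library and 24 in the 4 heat libraries, and the second had 4 and 198.

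Short reads led the pooled members in each library. The commonest length was 15 nt in all 8, with 31.3% of member reads in the unstressed library and 13.8% to 21.1% in the stressed ones. Per 17 nt read the unstressed library held 4.86 reads of 15 nt, and the others held 1.59 to 2.53. After 3 h of heat in air 16 nt reads made up 16.3%, nearly as many as 15 nt reads at 17.2%, whereas they made up 8.09% to 11.8% elsewhere. The longest class stood out under salt, with 35.0% of member reads at 25 to 41 nt (95% interval 34.7% to 35.3%), and after 1 h of heat in water, with 32.7%. In the unstressed library it was 20.4%.

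Since the choice used all libraries, it was repeated 8 times with 1 library left out, and the lengths were read in that library. The identifiers chosen on the 7 others held 26.1% of reads at 15 to 17 nt under salt, the lowest share, and 44.6% in the unstressed library, the highest. At the other kept identifiers the share was 5.41% to 12.4%. The ratio of the 2 shares ran from 2.93 under salt to 5.94 after 6 h of cold, with intervals that did not overlap in any of the 8 libraries. Among chosen identifiers with 20 or more reads in the library left out, 45.2% to 77.6% had their own commonest length at 15 to 17 nt there, against 3.74% to 16.6% of the others. The short peak was thus present in libraries that had no part in the choice, and in each of them a sizeable share of the loci did not show it on its own.

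The loci took up more of the heat and salt libraries than of the cold ones. They held 11.3% of the reads outside the 100 top identifiers in the unstressed library, 15.5% under salt, 8.26% at 6 h and 9.22% at 24 h of cold, 18.2% at 1 h and 17.2% at 3 h of hot air, and 15.2% at 1 h and 19.1% at 3 h of hot water. The cold libraries were the 2 lowest and the 4 heat libraries were all above the unstressed one, as was salt. The widest exact 95% interval was that of the unstressed library, 11.2% to 11.5%, so counting error does not reach these gaps. The spread between plants was not measured. Over all reads as denominator the order differed, with the unstressed library lowest at 0.612% and 3 h of heat in air highest at 5.49%.

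In TMM-scaled reads the summed level of the members stood at 1.29 to 1.32 times the unstressed one under salt (95% interval). It was 0.733 times at 6 h and 0.787 times at 24 h of cold, 1.62 times at 1 h and 1.52 times at 3 h of hot air, and 1.32 times at 1 h and 1.66 times at 3 h of hot water. Scaled by total reads all 7 stressed libraries, cold included, were above the unstressed one, by 4.28 to 8.96 times. The other kept identifiers were at 0.875 to 1.04 times with TMM. The members therefore stood lower than these in cold and higher in heat and salt.

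Lengths did not move together. Under salt the members' reads of 25 to 41 nt were 2.24 times the unstressed level, and those of 15 to 19 nt 0.905 times. Heat in water gave 2.12 and 1.90 times for the long class after 1 h and 3 h, and 0.982 and 1.52 times for the short one. Heat in air gave 1.96 and 1.78 times for the long class and 1.49 and 1.43 times for the short one. In cold the short class was at 0.587 and 0.697 times and the long class at 0.961 and 0.934 times. At the other kept identifiers the long class was at 1.93 times under salt, 1.40 and 1.24 times in heat in water, 1.10 and 1.16 times in heat in air, and 0.807 and 0.820 times in cold. The long class was thus above the unstressed level under salt at members and others, and in both kinds of heat it was farther above at the members.

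**Figure D2:**
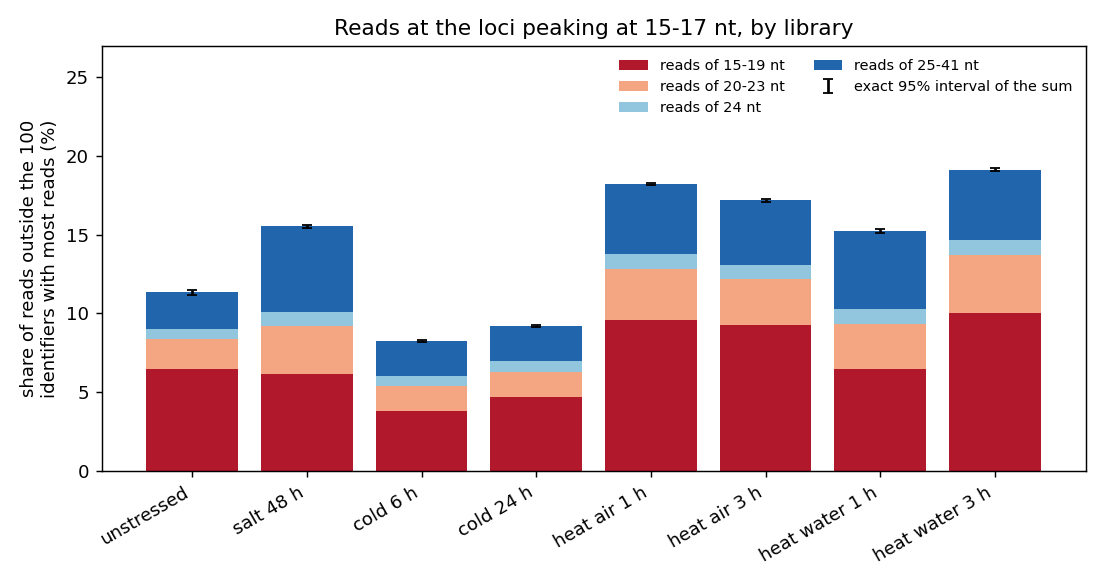
Share (%) of the reads outside the 100 identifiers with most reads that fell at the members, in each of the 8 libraries, stacked by read length class, with exact 95% intervals of the sum. Cold bars are the lowest at 8.26% and 9.22% and the bar for 3 h of heat in water the highest at 19.1%. Over all reads the unstressed library would be lowest, at 0.612%.

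Reads were listed in all 8 libraries at 2130 members, 50.2%, against 76.7% of the other kept identifiers. In the unstressed library 1785 members were at 0, and in the stressed libraries 25 to 547 were, the most after 1 h of heat in water. These are the 2 libraries with the fewest reads outside the top identifiers, and the part of depth in these zeros was not tested. The highest scaled level of a member lay in the salt library for 27.4% of members, in the library of 3 h of heat in water for 21.0%, and in the 6 h and 24 h cold libraries for 2.64% and 4.38%. For the other kept identifiers the 2 cold shares were 13.2% and 14.6%.

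Heat and cold libraries were compared directly, which leaves the unstressed library out. Summed over the 4 heat and 2 cold libraries, the median member was higher in heat by 0.84 on the log2 scale, and 82.4% of the 4210 members with reads in both were above 0. Over all tested identifiers the median was 0.08 and 53.7% were above 0. Scaled by total reads the medians were 0.22 and -0.54, which shifts both by the same amount. Since the heat libraries helped choose the members, the choice was also made on the unstressed and salt libraries alone. That gave 294 identifiers, with a median of 0.66 and 79.3% of them above 0. No other identifiers chosen on those libraries alone were set beside them.

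Single loci were counted as higher or lower in heat where the whole 95% interval lay beyond 2-fold in all 8 pairs of a heat with a cold library. By this rule 128 members from 95 genes were higher, 3.02% of them, where 1.37% of all tested identifiers were. As lower, 2 members were counted, 0.0471%, where 0.198% of all tested were. Of the 250 identifiers of any profile that were higher in heat, 51.2% were members, and members are 23.5% of the kept identifiers. With the choice on the unstressed and salt libraries alone, 4 of 294 were higher, 1.36%, which is close to the background.

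**Figure D3:**
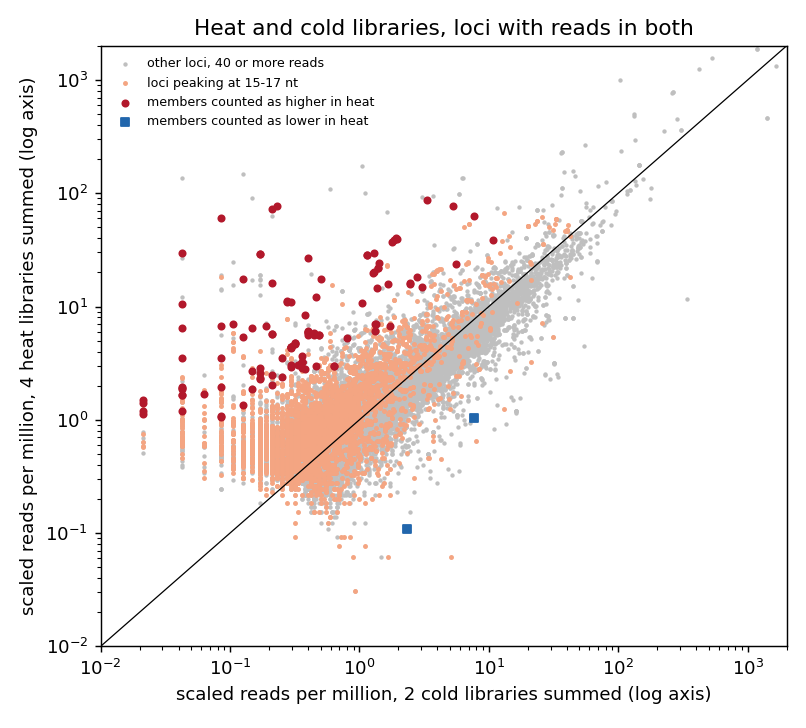
TMM-scaled reads relative to library size in the 4 heat libraries summed against the 2 cold libraries summed, both log axes, for loci with reads in both. Grey points are other tested loci, orange points members, red points the members counted as higher in heat with reads in both, and blue squares the 2 counted as lower. The line marks equal levels, and 82.4% of the 4210 members lie above it.

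The strongest loci of this kind were all but missing outside the heat libraries. Bradi2g02400.1 had 0 reads in the unstressed library, 2 under salt, 0 at 6 h and 0 at 24 h of cold, 920 at 1 h and 1902 at 3 h of hot air, and 458 at 1 h and 1717 at 3 h of hot water. The heat libraries do not overlap with the others. Heat was at least 1219-fold higher than cold, taking a floor of 3 counts over the 2 cold libraries. Its profile was a ladder, with 10.4% of 4999 reads at 15 nt, its commonest length, and 34.0% at 25 to 41 nt.

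Bradi1g67040.1 had 0 reads in the unstressed library, 2 under salt, 0 and 0 in cold, 893 at 1 h and 1923 at 3 h of hot air, and 348 at 1 h and 1005 at 3 h of hot water. Heat was at least 1017-fold higher than cold by the same floor. Bradi1g67080.1 had 0 unstressed, 9 under salt, 10 and 0 in cold, 986 and 2013 in heat in air, and 513 and 1155 in heat in water. These 2 loci carry close gene numbers on the same chromosome, and the deposited counts do not show whether any reads were counted at both. Bradi2g05380.1 had 0 unstressed, 2 under salt, 2 and 2 in cold, 1215 and 1428 in heat in air, and 430 and 818 in heat in water, a heat level 712 times the cold one (95% interval 278 to 2614). In all 4 loci each heat library lay far above each other library, and none had more than 11.5% of its reads at 1 length.

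Bradi2g19540.1, the member with most reads among those peaking at 17 nt, shared this pattern. It had 2 reads in the unstressed library, 0 under salt, 4 and 7 in cold, 1791 and 2054 in heat in air, and 461 and 662 in heat in water. The 2 members whose scaled levels were most like it over the 8 libraries were Bradi5g11110.1 and Bradi2g23440.1, with a Pearson correlation of 0.99 for each on the log scale, as a description. Bradi5g11110.1 had 412 and 489 reads in heat in air, 121 and 397 in heat in water, and 0 in the 4 libraries without heat. Bradi2g23440.1 had 59 and 97, then 24 and 60, and likewise 0 elsewhere. Such correlations rest on a heat level and a near-zero level rather than on 8 distinct values.

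Among the 926 members with 200 or more reads, 90 had 90% or more of their reads in the 4 heat libraries, which make up 50.8% of the scaled library size. That is 9.72%, against 0.681% of the 6464 other kept identifiers with as many reads. These loci reached the read minimum and the length rule through the heat libraries, so the counts are a description, and no choice outside heat was made for them. At 99% or more the numbers were 16 members, 1.73%, and 12 others, 0.186%. Of the 90, 88 had reads in each heat library. Their median share at the commonest length was 15.4%, so most were broad profiles.

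The 2 members lower in heat than in cold were short spikes. Bradi5g11630.1 had 0 reads in the unstressed library, 0 under salt, 192 at 6 h and 170 at 24 h of cold, 8 at 1 h and 24 at 3 h of hot air, and 7 at 1 h and 28 at 3 h of hot water. Cold was 7.38 times heat (95% interval 5.68 to 9.73), and 85.5% of the reads were 15 nt long. Bradi4g00510.1 had 3 unstressed, 0 under salt, 49 and 61 in cold, 2 and 3 in heat in air, and 0 and 2 in heat in water. Its cold level was 21.5 times its heat level (10.1 to 54.7), with 15 nt the commonest length. In both loci the 2 cold libraries lay above all others.

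Each stress was then set against the unstressed library, with the whole interval beyond 2-fold at both times where there were 2. For heat in air 148 members were higher, 3.49% where 1.70% of all tested were, and 54 were lower, 1.27% where 1.56% were. For heat in water 137 were higher, 3.23% where 1.70% were, and 59 were lower, 1.39% where 1.51% were. For salt 267 were higher, 6.29% where 4.20% were, and 141 were lower, 3.32% where 3.45% were. Cold went the other way, with 20 higher, 0.471% where 0.704% were, and 125 lower, 2.95% where 2.19% were. The shares higher in heat and salt thus stood above the background, and the shares lower in heat and salt stood near or below it. Of the higher members, 89 in heat in air, 86 in heat in water, 155 under salt and 9 in cold had no unstressed read. The compared libraries helped choose the members, so members were also chosen on the libraries outside each comparison. Then 4.24% were higher in heat in air, 3.57% in heat in water, 7.68% under salt and 0.423% in cold. As lower, 1.81%, 1.55%, 3.17% and 3.38% were counted. The nearest group by profile was the 437 kept identifiers led by 15 to 19 nt with 18 or 19 nt commonest. Of these, 1.14% were higher in heat in air, 3.66% in heat in water, 4.58% under salt and 0% in cold. As lower, 0.686%, 0.915%, 1.83% and 2.97% were counted in that order. In heat against cold 1.83% were higher. The member shares higher in heat in water and lower in cold were thus not particular to the members. All 4 comparisons share the unstressed library. Across the 10 lists, heat against cold included, 664 members were in 1 or more, 15.6% against 11.3% of all tested.

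Median log2 differences from the unstressed library, over members with reads in both, ran the same way. They were -0.53 for cold, 0.22 for heat in air, 0.37 for heat in water and 0.43 for salt, where those of all tested identifiers were 0.05, 0.05, 0.06 and 0.08. Scaled by total reads the member medians were all positive, at 2.30, 2.51, 2.43 and 3.19, and those of all tested were 2.88, 2.34, 2.11 and 2.84. The direction of the medians against the unstressed library therefore depended on the scaling in cold. With members chosen only on the libraries outside each comparison the medians with TMM were -0.38, 0.27, 0.42 and 0.60.

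In heat the loci whose 95% interval had its lower end farthest above the unstressed level were again Bradi2g02400.1, Bradi1g67080.1 and Bradi2g05380.1, in air and in water alike. By the fold itself Bradi2g19540.1, with 2 unstressed reads, was higher in heat in air, at 177 and 157 times, but with lower ends of 48.8 and 43.4. Against a floor of 3 unstressed counts Bradi2g02400.1 was at least 60.5-fold higher after 1 h of heat in air and at least 135-fold higher after 3 h in water. Bradi2g23250.1, a heat ladder with reads in every library, had 5 unstressed, 37 under salt, 76 and 83 in cold, 1876 and 2153 in heat in air, and 721 and 941 in heat in water. That put heat at 44.2 to 75.2 times the unstressed level. Cold was at 2.27 times (95% interval 0.931 to 7.19) and 2.63 times (1.08 to 8.32), from 5 unstressed reads. The commonest length of Bradi2g23250.1 in cold was 24 nt, with 59.2% and 43.4% of its reads, whereas in heat it was 15 or 16 nt. Bradi3g39620.1 had 8 unstressed, 188 under salt, 118 and 132 in cold, 2021 and 1781 in heat in air, and 819 and 369 in heat in water. Its last heat library was at 10.8 times the unstressed level, well under the 34.1 to 53.4 times of the other 3. By library and length, Bradi2g23250.1 could share at most 78.5% of its reads with Bradi3g39620.1.

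Under salt the leading loci were Bradi3g01480.1, Bradi3g14120.2 and Bradi3g53520.1, each a ladder with commonest length 16 nt. Bradi3g14120.2 had 5 reads unstressed and 398 under salt, 24.7 times the scaled level (95% interval 10.5 to 76.5). It was not a salt locus alone, with 607 reads at 3 h of hot water, 28.5 times the unstressed level. Bradi3g53520.1 had 0 unstressed and 178 under salt, at least 18.4-fold higher. It had 103 and 77 reads in cold, at least 5.12-fold and 4.07-fold higher, and so was also among the 3 leading loci of cold. Bradi3g01480.1, with 0 unstressed and 119 under salt, had 782 and 1277 in heat in air and 203 and 316 in heat in water.

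The other leading loci of cold were Bradi5g11630.1, given above, and Bradi5g15830.1. The latter had 0 unstressed, 65 under salt, 105 and 126 in cold, 53 and 46 in heat in air, and 8 and 21 in heat in water. Cold was at least 5.22-fold and 6.66-fold higher than unstressed. Salt, at least 6.72-fold higher, lay as high as cold. Loci higher in every stressed library than in the unstressed one are thus part of these lists.

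The leading loci lower than in the unstressed library had another shape. Bradi4g01780.1 had 170 reads unstressed, 19 under salt, 14 and 35 in cold, 8 and 18 in heat in air, and 11 and 19 in heat in water. The scaled levels were 108 and 61.7 times lower in heat in air, and each stressed library had fewer raw reads too. Of its reads 91.5% were 15 nt long. Bradi4g07590.1, at 15 nt alone, had 128 unstressed, 0 under salt, 42 and 40 in cold, 6 and 10 in heat in air, and 0 and 8 in heat in water.

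Bradi1g65870.1 had 238 unstressed, 16 under salt, 32 and 42 in cold, 55 and 38 in heat in air, and 32 and 108 in heat in water. It was 49.8 and 35.7 times lower in cold, and 98.4% of its reads were 15 nt long. Bradi1g32070.1, with 77.8% at 16 nt, had 228 unstressed and 8 under salt, 91.9 times lower (95% interval 45.8 to 215). Bradi3g44720.1, with 78.7% at 15 nt, had 150 unstressed, 0 under salt, 28 and 22 in cold, 24 and 156 in heat in air, and 4 and 30 in heat in water. At these 5 loci reads of 25 to 41 nt were at most 0.357% of the total.

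The size of the difference varied between stressed libraries at some of these loci. Bradi1g69010.1 had 96 reads unstressed and 8 to 19 in 6 stressed libraries, but 120 after 1 h of heat in water, where the scaled level was 1.53 times lower (95% interval 1.16 to 2.02). Bradi4g29450.1 had 102 unstressed, 4 under salt, 2 and 6 in hot air and 0 at 1 h of hot water. It had 144 and 108 in cold and 104 after 3 h of heat in water, which scaled were 4.75, 5.96 and 4.17 times lower than unstressed. Both loci were thus below the unstressed level in all 7 stressed libraries with TMM. Bradi2g00760.1 had 80 unstressed and 0 and 10 in heat in water, and its counts differed by 5% or less from those of 2 loci of other genes, Bradi4g10260.1 and Bradi4g10320.1.

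The lists were also counted by profile over all members. The profiles were set on reads pooled over all 8 libraries, so a spike can owe its shape to the unstressed library. No choice outside the compared libraries was made for the profiles, so these shares are a description. Of the 283 spikes, 52 (18.4%) were lower in cold than unstressed, 34 lower in heat in air, 28 lower in heat in water and 48 lower under salt. Of the 2761 ladders the counts were 37 (1.34%), 8 (0.290%), 18 (0.652%) and 63 (2.28%). Over all tested identifiers the shares were 2.19%, 1.56%, 1.51% and 3.45%, so the ladders were below them. As higher, 4.45% of ladders and 0.707% of spikes were counted in heat in water, where 1.70% of all tested were. Under salt it was 8.91% and 2.12%, where 4.20% were. In heat in air the shares were alike, at 4.20% and 4.24%, where 1.70% of all tested were. Over the lists of loci higher than unstressed, the median share at the commonest length was 10.4% to 12.4%. Over the lower lists it was 38.7% in cold, 63.9% in heat in air, 44% in heat in water and 29.3% under salt. The lower list of salt held more ladders than spikes.

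**Figure D4:**
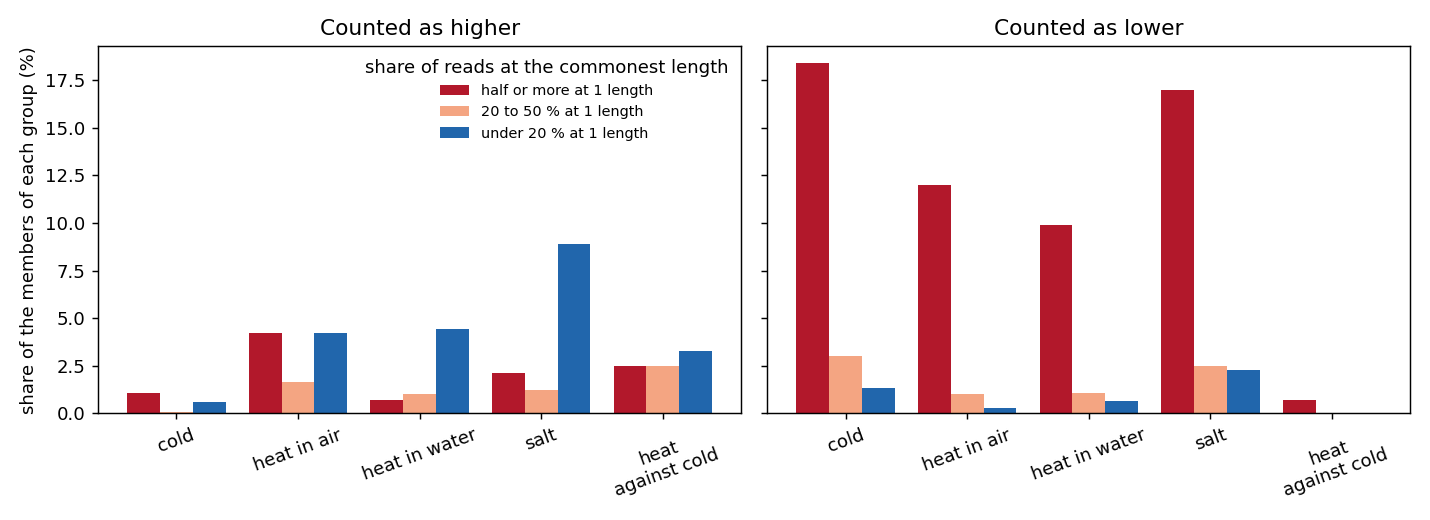
Share (%) of the spikes, the intermediate loci and the ladders counted as higher (left) or lower (right) in each of the 5 comparisons. Bars for spikes reach 18.4% as lower in cold, where 2.19% of all tested were. Those for ladders reach 8.91% as higher under salt, where 4.20% were. The first 4 comparisons share the unstressed library, and all libraries compared helped set the profiles.

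The summed level of the spikes was below the unstressed one in all 7 stressed libraries with TMM, at 0.289 and 0.378 times in cold, 0.407 under salt, and 0.438 to 0.814 in heat. The ladders were at 0.902 and 0.913 times in cold, 1.68 under salt, and 1.69 to 2.04 in heat. Unscaled, the spikes had 5854 reads in the unstressed library and 4909 after 1 h of heat in water. In the other stressed libraries they had 7678 to 31138, so the direction for spikes depended on the scaling. Spikes made up 26.3% of member reads in the unstressed library and 8.19% to 14.1% in the stressed ones. That share uses no scaling between libraries, but the unstressed reads helped set which loci are spikes. Heat over cold, which leaves the unstressed library out, was 2.28 times for spikes (95% interval 2.25 to 2.32), 2.07 times for ladders (2.06 to 2.08) and 1.82 times for the loci between. As summed reads, all 3 groups were higher in heat, spikes the most. Near copies entered these sums several times: Bradi3g45010.1, Bradi3g45010.2 and Bradi3g45010.3 had 5916 reads each. The intervals take no account of this, and the order of the groups was not tested. By locus the order differed. Counted as higher in heat than in cold were 7 of 283 spikes, 30 of 1199 loci between and 91 of 2761 ladders. The share was thus lowest for spikes, and the 2 members counted as lower were both spikes.

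The lists were made again with other stressed libraries, summed, in place of the unstressed one, an alternative chosen after seeing the data. For heat these were the cold and salt libraries, and for cold and salt all stressed libraries of other treatments. Of the 54 members lower in heat in air than unstressed, 1 was also lower by this reference (1.85%), and of the 59 in heat in water 2 were (3.39%). Over all tested identifiers 34 of 284 and 30 of 275 were. In cold 22 of 125 members and under salt 29 of 141 were, against 75 of 398 and 139 of 628 of all tested. For the higher lists it was 105 of 148 members in heat in air, 90 of 137 in heat in water, 114 of 267 under salt and 3 of 20 in cold, against 200 of 310, 179 of 310, 336 of 764 and 39 of 128 of all tested. The 2 lists of a stress share its libraries, and no difference in overlap was tested. By this reference 456 members were lower in cold, 10.7% where 4.79% of all tested were, and 18 were higher, 0.424% where 0.709% were. In heat in air 296 were higher, 6.98% where 2.67% were, and 23 lower, 0.542% where 1.19% were. In heat in water 291 were higher, 6.86% where 2.94% were, and 36 lower, 0.848% where 1.06% were. Under salt 290 were higher, 6.83% where 4.74% were, and 186 lower, 4.38% where 3.18% were. The libraries compared here all helped choose the members. No choice outside them was made for these lists, so these shares are a description.

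The 10 members with most reads, near copies named once, were of several kinds. Bradi3g01920.1 led with 104 reads unstressed, 658 under salt, 569 and 660 in cold, 1256 and 1246 in heat in air, and 342 and 1150 in heat in water, 39.7% of them at 15 nt. Bradi3g45010.1 had 106, 447, 728 and 835, then 1092, 1101, 279 and 1328 in the same order, with 52.7% at 15 nt, and 2 more identifiers of its gene had the same profile to within 5%. Scaled, the highest library of these 2 loci was 3.18 and 2.95 times the lowest. Both had 15 nt as the commonest length in every library, except that in the unstressed one Bradi3g01920.1 peaked at 25 nt.

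Bradi4g08500.1 had 181 reads unstressed, 264 under salt, 1488 and 468 in cold, 1718 and 448 in heat in air, and 464 and 771 in heat in water. Its early libraries stood above its late ones in cold and in heat in air: scaled reads were 222 after 6 h and 74.2 after 24 h of cold, and 339 after 1 h and 68.5 after 3 h of heat in air. Bradi4g08800.1 ran alike, with 1497 and 500 in cold and 1336 and 372 in heat in air, as did Bradi4g09120.5, with 1446 and 449 in cold and 1573 and 912 in heat in air. In hot water the first 2 had 464 and 376 reads at 1 h and 771 and 620 at 3 h, and scaling turned that order, to 242 and 196 at 1 h and 181 and 146 at 3 h. These 3 loci lie under close gene numbers on chromosome 4 and were in the list for their reads, not for their pattern. By library and length, Bradi4g08500.1 could share at most 82.5% of its reads with Bradi4g08800.1 and 77.7% with Bradi4g09120.5. Whether reads were counted at several of these loci is not known, so they are not independent examples. Bradi1g32860.1, by contrast, had 445 and 1088 reads in cold, and Bradi1g32700.1 had 193 and 433. The former could share at most 74.1% of its reads with the latter.

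The steadiest members with 200 or more reads were Bradi3g06730.1, Bradi1g08260.1 and Bradi3g54210.1, whose highest scaled library was 1.77, 1.87 and 1.96 times the lowest. Bradi1g08260.1 had 58 reads unstressed, 191 under salt, 242 and 230 in cold, 231 and 366 in heat in air, and 96 and 288 in heat in water. Scaled, these lay between 36.1 and 67.7. Bradi3g06730.1 also had 19.6% of its reads at 24 nt, against a member median of 5.34%. At the other end were Bradi3g22980.1, Bradi4g01780.1 and Bradi3g01480.4, with ranges of 192, 108 and 98.1 times over 8 libraries with reads in each. The first range rests on 1 read after 6 h of cold, and the last on 2 unstressed reads (95% interval 27.1 to 811).

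Bradi4g04220.1 had most reads among members peaking at 16 nt. It had 44 unstressed, 336 under salt, 233 and 278 in cold, 671 and 1108 in heat in air, and 214 and 499 in heat in water, and no library was at 0. The members most like it were Bradi1g04620.1 and Bradi5g18680.1, with correlations of 0.98 and 0.97 over the 8 libraries. Bradi1g18340.1 and Bradi1g04620.1 were most like Bradi3g01920.1, with 0.97 and 0.95. All of these were highest in a heat library and shared the scaling.

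**Figure D5:**
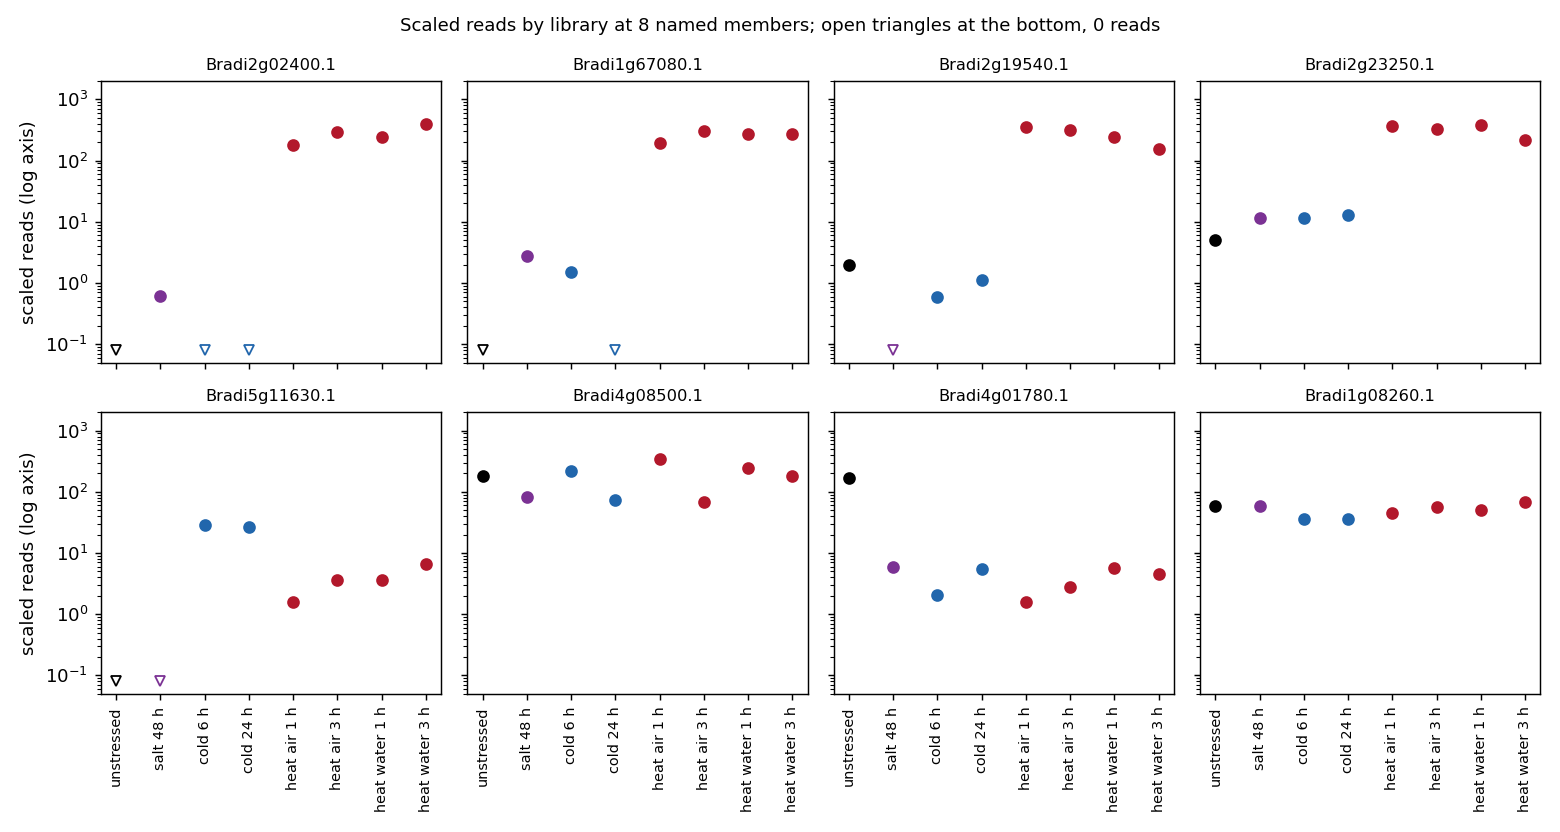
TMM-scaled reads (log axis) in each of the 8 libraries at 8 named members, with black for unstressed, purple for salt, blue for cold and red for heat, and open triangles at the bottom for 0 reads. The first 4 loci are high only in the 4 heat points, Bradi5g11630.1 in the 2 cold points, and Bradi4g01780.1 in the unstressed one, while Bradi1g08260.1 lies between 36.1 and 67.7.

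A few loci had many reads in 1 library, and those named here were picked after their values were seen. None of them held more than 3.12% of the member reads of a library. Bradi2g01940.1 had 2577 of its 3860 reads in the library of 1 h of hot air, and 96.7% of those were 15 nt long. Bradi3g22010.1 had 1915 of 3925 after 3 h of heat in air, 93.3% of them at 15 nt. Bradi3g42050.1 had 999 of 1244 after 24 h of cold, 83.1% of them at 16 nt. Spikes therefore also occurred in stressed libraries. Bradi4g35070.1 held 695 of the 22298 member reads of the unstressed library, 3.12%, with no dominant length there.

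Identifiers are not independent units. Counting as near copies those whose counts by library and length differ by 5% or less of their sum, 1778 members (41.9%) fell in 712 groups, and 3177 distinct profiles were left. Nearly all groups were transcripts of 1 gene, with 8 groups of 22 identifiers across genes. Bradi1g39210.1, Bradi3g03940.1, Bradi3g27340.1 and Bradi5g23870.1 had 1802 reads each. With near copies counted once, heat against cold gave 96 higher and 2 lower. Member genes made up 19.8% of kept genes on chromosome 4, by the number in the identifier, and 23.1% to 24.4% on the other 4 chromosomes.

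Counts at the members were mostly even numbers. Of the 198435 counts above 0, by library and length, 76.8% were even, and a count of 2 occurred 99578 times against 24670 times for a count of 1. Among identifiers led by 24 nt reads 50.6% were even, and among those led by 25 to 41 nt 77.8% were, so evenness was not particular to short reads. It was present in all 8 libraries, at 72.1% to 78.4% of member counts. Reads entered in pairs would make the counting intervals too narrow, so every count was also halved: 80 members were then higher in heat than in cold and 74 higher in heat in air. Why counts are even was not tested.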

How the data were processed

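The deposited values are whole-number counts of small RNA reads per 3′ UTR identifier and read length, called raw in the file headers. Header cells and columns are out of step, so lengths were taken where values span 15 to 41. CASAVA, Bowtie 0.12.7 and bedtools 2.10.0 are named in the submitters' processing notes, with no role. The sources used here state no build, annotation, strand setting or treatment of reads mapping to several places, so a read can have been counted at several identifiers. The files cover 3′ UTR reads only, and their totals are not sequencing depth.

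Libraries were scaled over identifiers with 40 or more reads by TMM in edgeR 4.0.16 (R 4.3.3), with the unstressed library as reference and trims of 30% and 5%. The rest used Python 3.11.15 (scipy 1.17.1, pandas 2.3.3, numpy 2.4.6, matplotlib 3.10.9). The ratio of scaled reads of 2 libraries was given a 95% interval by the exact Clopper-Pearson method, from the share that 1 library holds of both. An identifier counted as higher or lower if no point of that interval was within 2-fold. Against 0 reads a floor of 3 counts was used, per library or, for heat against cold, over the 2 cold libraries. Amplified reads are not independent molecules, so intervals and floors cover counting error only.

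Loci were named by rule: the 10 with most reads, 3 per direction and comparison (by the interval end nearest to no change, in the weakest library or pair), the 3 steadiest, widest-ranging and purest in length, 3 on each side of the rule's edge, and the 2 most like the most-read locus of each commonest length. The members, lists and rules were chosen with earlier results of these data known. No gene lists were run, because 0 of the 3031 member genes were found among 31335 genes in RefSeq's Brachypodium distachyon table, and no sequence is shown. Alternatives were other scalings, halved counts, a 4-fold bound, 200 or more reads, 1 identifier per gene, near copies once, short reads alone, members chosen on other libraries, other stressed libraries as reference, and each library left out.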

Additional observations from a re-analysis of the deposited data

Results flagged for a closer look

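At 3 named loci the TMM-scaled values of the heat libraries lay on one side of the unstressed value and those of the cold libraries on the other, which was not tested as a difference. The lowest heat level of Bradi2g19540.1 was 77.8 times its unstressed level (95% interval 21.5 to 644), and its highest cold level was 0.555 times (0.106 to 5.48), from 2 unstressed reads. The lowest heat level of Bradi1g04620.1 was 2.87 times unstressed (1.34 to 7.06) and its highest cold level 0.912 times (0.426 to 2.24), from 8 unstressed reads. The cold intervals of both loci include no change. Scaled by total reads their cold levels lay above the unstressed one, at 1.74 and 5.10 times and at 3.81 and 8.39 times, so the opposite sides rest on the scaling. Bradi4g00510.1 went the other way from 3 unstressed reads. Its heat libraries with reads were at up to 0.157 times (0.0131 to 1.37), the heat library with 0 reads at most 0.522 times, and its lowest cold level was 2.44 times (0.787 to 12.2). Those intervals include no change as well.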

How the results depend on the processing

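Counts are given as higher and lower, and the cause of each change was not tested unless the setting itself removes loci or reads. The main counts were 20 and 125 in cold, 148 and 54 in hot air, 137 and 59 in hot water, 267 and 141 for salt, and 128 and 2 for heat against cold. Scaling by total reads gave 1072 and 7 in cold, 1471 and 13 in hot air, 1061 and 8 in hot water, 2691 and 18 for salt, and 52 and 8 for heat against cold. Halved counts gave 3 and 74, 74 and 42, 68 and 33, 90 and 78, and 80 and 1 in that order. A 4-fold bound gave 2 and 40, 62 and 27, 60 and 18, 66 and 45, and 49 and 0. With 200 or more reads, which left 926 members, the lower counts were 63, 28, 27, 73 and 1, and salt had 166 higher. With 1 identifier per gene salt had 176 higher. Reads of 15 to 19 nt alone gave 6 higher for cold, 89 for heat in air, 62 for heat in water and 76 for salt. Members chosen on the libraries outside the comparison gave 4 and 0 for heat against cold. With other stressed libraries in place of the unstressed one, cold had 456 lower, heat in air 296 and 23, and heat in water 291 and 36.

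Leaving out 1 library asks fewer libraries to pass. It gave 40 to 83 higher and 170 to 242 lower for cold, 222 to 285 and 70 to 149 for heat in air, 203 to 313 and 104 to 108 for heat in water, and 135 to 211 and 2 to 22 for heat against cold. The highest value came without the 6 h cold or the 1 h heat library of each comparison, except that 211 came without the 24 h cold library. Of all alternatives, those for the number of members included, 72 stayed within 1.5 times the main count and 63 did not. For the number of members only the cut of 200 or more reads, with 926, did not. Nearly all of the 63 were thus higher or lower counts. The number of members was 3376 to 4211 with 1 library left out, lowest without 3 h of heat in air, 3328 with libraries weighted equally, 4273 with 10 identifiers left out in place of 100, and 3177 with near copies counted once. The members' share of reads was lowest after 6 h of cold and highest after 3 h of heat in water under every setting tried except the denominator of all reads. No paired analysis was possible because each condition has 1 library. The unstressed library had the fewest reads outside the 100 top identifiers, 196667, and 1785 members had no read there. The part of depth in these zeros was not tested.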
